A study of Mus musculus with 4 samples.

Results

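Endothelial cells line blood and lymphatic vessels, and 177 of the 9263 cell barcodes kept from the mesenchyme of 2 embryonic salivary glands were endothelial by their RNA. A barcode counted as endothelial if it held at least 3 UMIs (unique molecular identifiers, the tags by which 1 RNA molecule is counted once) of Cdh5 (VE-cadherin, the junctional cadherin of vessel walls), Pecam1 (CD31) and Kdr (VEGF receptor 2) together, and if globin RNA made up less than 20% of its UMIs. The submandibular mesenchyme library held 120 such cells and the parotid mesenchyme library 57. The whole series held 15351 barcodes, and no barcode of the 2 epithelium libraries met the rule.

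The libraries came from ICR mouse embryos at embryonic day 12, with about 10 glands of each kind pooled, Dispase-separated mesenchyme dissociated in a cold-active protease mix, and cells captured on the 10x Chromium system. The labels give no genotype, transgene or treatment, and separate the groups by gland and tissue layer. Each gland and layer had 1 library, so nothing below could be tested between glands, and every interval is a 95% interval for counting error only. Mesenchymal cells of the same library, with at least 2 UMIs of Pdgfra and Col3a1 and none of Cdh5, Pecam1 or Kdr, served for comparison (3505 submandibular and 3484 parotid cells).

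New vessels form from endothelial cells that sprout under VEGF and remodel into arteries and veins. Notch signalling, with the ligand Dll4 and the Hey target genes, marks arterial cells together with Sox17, while the nuclear receptor Nr2f2 (COUP-TFII) marks veins. Lymphatic endothelium arises in large part from venous cells that switch on the homeobox gene Prox1, and these cells then sprout under VEGF-C through the receptors Flt4 (VEGFR3) and Nrp2.

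The endothelial share of kept barcodes was 2.48% (2.06 to 2.96) for submandibular mesenchyme and 1.29% (0.978 to 1.67) for parotid mesenchyme. The counting intervals did not overlap, but dissection and digestion can set such shares and their part was not tested. The rule genes themselves were found in most members: Cdh5 in 118 of 120 submandibular and 54 of 57 parotid cells, Pecam1 in 108 and 53, and Kdr in 110 and 48. All 3 were seen in 100 and 42 cells. Few barcodes lay near the threshold. There were 15 submandibular barcodes and 1 parotid barcode with 2 rule UMIs, just outside, and 6 and 3 with exactly 3 UMIs, just inside, against medians of 13 and 11 UMIs among the members. A further 43 submandibular and 19 parotid barcodes had enough rule UMIs but were left out for more than 10% mitochondrial RNA, and 2 parotid barcodes were left out for globin RNA.

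Members were about as deep in both libraries, with medians of 8976 and 9030 UMIs per cell. That was more than the 5340 and 5626.5 UMIs of the mesenchymal cells, so shares of cells with a UMI are also given after thinning each cell to 2500 UMIs where classes of unlike depth are compared. No barcode was shared between the endothelial cells of the libraries. Doublets were not called; 8 submandibular and 7 parotid members also held 2 or more UMIs of Pdgfra and Col3a1.

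Sox17, an arterial transcription factor that the rule did not use, was found in 65 of 120 submandibular cells (54.2%) and 40 of 57 parotid cells (70.2%). The mesenchymal cells held it in 0.200% and 0.0861%. Thinned to 2500 UMIs, Sox17 was in 25% and 33.3% of endothelial cells and in 0.0863% and 0% of mesenchymal cells. The 10 mesenchymal markers summed to 212 CPM (UMIs of a gene over all UMIs of the class, scaled to the same total for each class) in submandibular and 311 CPM in parotid endothelial cells, against 3223 and 3970 CPM in the mesenchymal cells. Pdgfra and Col3a1, by which the mesenchymal cells were chosen, are among the 10, so this contrast was in part set by the rule. The 8 others were all at least 2-fold lower in the endothelial cells of each library, where 16.7% and 17% of all genes were. Of the 11 macrophage markers, Ptprc, C1qb, C1qc and Cx3cr1 were at 0 in the endothelial cells of both libraries, and the list summed to 20.7 and 4.94 CPM, against 20.7 and 2.04 CPM in the mesenchymal cells. Of the 11 mural markers, which mark pericytes and smooth muscle, Cspg4, Rgs5 and Myh11 were at 0 in both. The mural sum was 168 CPM in submandibular and 41.1 CPM in parotid endothelial cells, against 86 and 121 CPM in the mesenchymal cells. Of the submandibular UMIs 167 lay in 1 cell, the muscle-marker cell described below, and 10 submandibular cells held 2 or more UMIs. The mural sum without that cell is not given. Acta2, on this list, was at 111 CPM with it and 8.13 CPM without it, against 22.5 CPM in submandibular mesenchymal cells. The part of other cell types in the results was not tested beyond the values given without such cells. Erythroid markers summed to 843 and 1257 CPM, below the 8257 and 4248 CPM of the mesenchymal cells. The globin limit applied to the endothelial cells only, so no difference between the classes is read from this order. The highest globin share was 0.166% and 2.53% in submandibular and parotid members and 88.4% and 83.1% in the mesenchymal cells. Median shares were 0.0879% and 0.0745% in members and 0.0837% and 0.0761% in the mesenchymal cells.

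A single submandibular cell carried 781 UMIs of the muscle markers beside 32 rule UMIs. A single parotid cell carried 30 UMIs of the megakaryocyte markers, 17 of them Itga2b, beside 5 rule UMIs and the highest globin share of any member, 2.53%. Both were kept, and the values between glands of named genes that rest on them are given with and without them.

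Genes of the endothelial programme stood far above the mesenchyme in both glands. Of 1671 genes with at least 100 CPM on the higher side in both libraries, 178 (10.7%) were at least 2-fold higher in endothelial cells and 123 (7.36%) at least 2-fold higher in mesenchymal cells, in both libraries. Because the members were chosen on vessel genes and the comparison cells on their absence, these ratios describe the classes and support nothing further. A list of 36 pan-endothelial genes, none of them used by the rule, had 34 members above 20 CPM in each library, and all 34 were at least 2-fold higher in endothelial cells. The background share at 20 CPM was 12% of 6590 genes in the submandibular and 13.4% of 6310 genes in the parotid library. The list's median log2 ratio was 6.71 and 8.27, where all genes had medians of -0.20 and -0.15.

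Claudin 5 (Cldn5), the main tight junction claudin of endothelium, reached 589.7 CPM in submandibular and 693 CPM in parotid endothelial cells, against 0.38 and 0.634 CPM in the mesenchymal cells. It was present in 113 of 120 and 52 of 57 members. The fenestral diaphragm protein Plvap reached 555 and 421 CPM, and the cell-surface protein Ecscr 592 and 541 CPM. The genes with the highest smaller ratio of the libraries were Myct1, Cldn5, Aplnr, Klhl4, Plvap, Tie1, Cd93, Ecscr, Sox17, Lmo2, Ctla2a, Gja4, Flt1, Gimap4 and Esam. They include receptors (Tie1, Flt1, the apelin receptor Aplnr), a haematopoietic and endothelial transcription cofactor (Lmo2) and a gap junction protein (Gja4). Myct1 had 201 UMIs in submandibular members and 1 UMI in 3505 mesenchymal cells, a ratio with an interval of 597 and above.

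The genes lowest in the endothelial cells were Osr1, Dcn, Sfrp1, Mab21l2, Cdo1, Cxcl12, Runx1t1 and Gpc3. Decorin (Dcn), a matrix proteoglycan, was at 11.1 and 18.1 CPM in submandibular and parotid endothelial cells and at 297 and 561 CPM in the mesenchymal cells. Osr1, a transcription factor of embryonic connective tissue, was at 15.9 and 9.88 CPM against 445 and 290.0 CPM. Cxcl12, the chemokine read by the receptor Cxcr4, was at 16.7 and 18.1 CPM against 302 and 419 CPM. Its receptor lay on the other side of the comparison: Cxcr4 was at 35 and 31.3 CPM in the endothelial cells and at 0.285 and 0.453 CPM in the mesenchymal cells.

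The vessel basement membrane genes also ran high. Of 12 such genes, 11 were above 20 CPM in each library, and 9 stood 2-fold or more above mesenchyme in submandibular endothelial cells and 11 in parotid ones. The type IV collagen Col4a1 reached 672 and 673 CPM, against 33.2 and 34 CPM in the mesenchymal cells. Col18a1, the endostatin precursor, reached 529 and 395 CPM against 8.65 and 2.17. Of 10 genes of the brain vessel barrier, 2 submandibular and 4 parotid ones passed 20 CPM, 1 and 2 of them stood 2-fold or more above mesenchyme, and 1 parotid one was lower by that size. The glucose transporter Slc2a1 was at 113 and 196 CPM in the endothelial cells and 16.9 and 19.3 CPM in the mesenchymal cells. Mfsd2a, a lipid transporter of barrier vessels, was at 0 UMIs in the members of both libraries. A list of 16 cell cycle genes included the inhibitors Cdkn1a and Cdkn1c. Of these 16, 1 stood 2-fold or more above mesenchyme in submandibular endothelial cells and 0 in parotid ones. The shares of all genes were 12% and 13.4%, and the list's median log2 ratios were -0.08 and -0.16. The 1 gene was Cdkn1a, found in 5 submandibular cells, with 31 UMIs in 1 of them.

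Of 24 transcription factor genes known from endothelium, 18 passed 20 CPM in each library. Of these, 16 stood 2-fold or more above mesenchyme and 2 stood lower by that size. For every list set against mesenchyme, the shares of all genes past 20 CPM were 12% and 13.4% higher and 16.7% and 17% lower. Of 15 genes of sprouting tip cells and capillaries, 12 submandibular and 11 parotid ones passed 20 CPM and each of these stood 2-fold or more above mesenchyme. The tip cell gene Esm1 was at 41.4 and 56.0 CPM in submandibular and parotid endothelial cells, in 18 and 15 cells, and had 0.0475 and 0.0906 CPM in the mesenchymal cells. Of 16 BMP and TGF-beta genes 12 passed 20 CPM, and 5 of them stood 2-fold or more above mesenchyme in each library. Lower by that size were 2 submandibular and 3 parotid ones, and the median log2 ratios were 0.75 and 0.50.

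Promoters of genes that were high together can be read for shared short sequences. The words CAGGAAG and CCGGAAG and also AGATAAG were searched on both strands of the RefSeq windows from 250 bases before to 50 bases after each gene's start (GRCm38.p6). CAGGAAG and CCGGAAG hold the core that ETS factors such as Erg and Fli1 bind, and AGATAAG the core that GATA factors bind. Of the 36 pan-endothelial genes 21 had a window in the table, and 9 of these (42.9%) held CAGGAAG, against 3503 of all 27025 windows (12.96%). CCGGAAG was in 0 of the 21 (9.12% of all windows) and AGATAAG in 2 (9.52%, against 3.07%). Among the 15 genes highest over mesenchyme, 8 had a window and 1 of these (12.5%) held CAGGAAG, no more than the share of all windows. A match describes the letters only. The 4 windows below, in upper case at the CAGGAAG match or its reverse complement, belong to the genes of either set with a match, a single window in the table and the highest smaller ratio, chosen after their values were seen. The matching gene among the 15 highest was Ctla2a, which has 2 windows in the table and is not printed. They are Robo4, a guidance receptor of vessel walls (chr9:37401722-37402021), Hhex, a homeobox gene (chr19:37434591-37434890), Emcn, the sialomucin endomucin (chr3:137340828-137341127), and Rasip1, a junctional Ras interactor (chr7:45627287-45627586). All lie on the plus strand, with matches starting at positions -50, -98, -174 and -91 from the start site.
Robo4: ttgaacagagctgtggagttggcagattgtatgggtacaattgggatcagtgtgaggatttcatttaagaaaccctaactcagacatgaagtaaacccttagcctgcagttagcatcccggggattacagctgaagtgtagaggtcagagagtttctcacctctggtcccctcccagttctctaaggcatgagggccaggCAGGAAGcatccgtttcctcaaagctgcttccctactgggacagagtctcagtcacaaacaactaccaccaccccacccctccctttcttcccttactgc
Hhex: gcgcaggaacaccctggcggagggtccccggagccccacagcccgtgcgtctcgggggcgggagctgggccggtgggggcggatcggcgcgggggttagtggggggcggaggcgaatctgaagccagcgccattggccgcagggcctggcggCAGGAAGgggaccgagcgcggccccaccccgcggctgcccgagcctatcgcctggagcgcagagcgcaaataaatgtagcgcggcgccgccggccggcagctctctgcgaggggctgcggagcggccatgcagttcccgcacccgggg
Emcn: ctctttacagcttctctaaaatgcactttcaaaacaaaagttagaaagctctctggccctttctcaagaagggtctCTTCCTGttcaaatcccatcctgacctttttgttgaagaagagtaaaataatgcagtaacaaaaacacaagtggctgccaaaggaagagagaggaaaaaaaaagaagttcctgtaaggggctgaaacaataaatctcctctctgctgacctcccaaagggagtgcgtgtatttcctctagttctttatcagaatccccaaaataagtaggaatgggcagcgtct
Rasip1: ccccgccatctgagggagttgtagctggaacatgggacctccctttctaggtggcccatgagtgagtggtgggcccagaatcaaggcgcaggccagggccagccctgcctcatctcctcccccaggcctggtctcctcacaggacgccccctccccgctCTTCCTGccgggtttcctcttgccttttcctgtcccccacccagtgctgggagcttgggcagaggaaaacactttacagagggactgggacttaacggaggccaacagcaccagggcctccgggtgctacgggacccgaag
Robo4 was at 123 and 93.8 CPM in submandibular and parotid endothelial cells and at 0.0951 and 0 CPM in the mesenchymal cells. Emcn was at 631 and 518 CPM against 3.09 and 0.997 CPM. Hhex was lower, at 45.4 and 70.8 CPM, against 0.143 and 0.0453 CPM.

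Arterial genes differed in how many endothelial cells held them, from Gja4, Dll4 and Hey1 in a minority of both glands' cells to Igfbp3 in 75.8% and 87.7%. Of 21 arterial genes, 17 submandibular and 16 parotid ones passed 20 CPM, and 15 in each library stood 2-fold or more above mesenchyme. The median log2 ratios were 3.91 and 5.25. The connexin Gja4 was at 237 and 245 CPM and was found in 37 of 120 and 20 of 57 members. The Notch ligand Dll4 was at 40.6 and 46.1 CPM, in 31 and 19 cells, against 0.0475 and 0.181 CPM in the mesenchymal cells. The Notch target Hey1 was at 75.6 and 77.4 CPM, in 32 and 17 cells. Its relative Hey2 had 1 UMI in the endothelial cells of each library.

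The netrin receptor Unc5b was at 252 and 165 CPM. Without cells that held a Prox1 UMI or 5 or more Ccl21a UMIs it was at 147 CPM in the submandibular cells, 0.894-fold (0.687 to 1.17) the parotid level. The semaphorin and VEGF co-receptor Nrp1 was at 172 and 217 CPM. The arterial ligand ephrin-B2 (Efnb2) was at 54.1 and 69.1 CPM in the endothelial cells and 58.2 and 14 CPM in the mesenchymal cells. Cxcl12, also on the arterial list, was the 1 member with at least 2-fold less than mesenchyme in either library, where 16.7% and 17% of all genes were.

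Of 11 venous genes 8 passed 20 CPM in each library, and 5 submandibular and 6 parotid ones stood 2-fold or more above mesenchyme, with median log2 ratios of 7.03 and 6.86. Nr2f2 was the 1 member lower than in mesenchyme by that size. Nr2f2 was at 112 CPM in submandibular and 90.5 CPM in parotid endothelial cells and higher in the mesenchymal cells, at 367 and 290.0 CPM. The apelin receptor Aplnr, known from venous and capillary cells, was at 303 and 337 CPM in endothelial cells and 0.19 and 0.408 CPM in mesenchymal cells. It was found in 73 of 120 (60.8%) and 39 of 57 (68.4%) members. The venous receptor Ephb4 was at 70.0 and 41.1 CPM, near the 42.2 and 46.4 CPM of the mesenchymal cells. Genes of mature veins were scarce: von Willebrand factor (Vwf) was in 17 and 9 members, Ackr1 had 1 and 3 UMIs, and Selp and Stab2 had 0 UMIs in the members of both libraries.

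Arterial and venous transcripts met in some single cells. After thinning to 2500 UMIs, 15.8% (9.81 to 23.6) of submandibular cells held UMIs of the arterial genes Gja4, Gja5, Hey1, Dll4 or Bmx and none of Nr2f2 or Aplnr, 43.3% (34.3 to 52.7) held the venous pair alone, and 9.17% (4.67 to 15.8) held both. In the parotid library the shares were 24.6% (14.1 to 37.8), 47.4% (34.0 to 61.0) and 12.3% (5.08 to 23.7). Every interval overlapped between the glands. Unthinned, 36.7% and 36.8% of cells held both kinds, so the share of mixed cells depends on depth. In thinned mesenchymal cells the arterial genes alone were in 0.547% and 0.433%, while the venous pair alone was in 53.1% and 44.4%, mostly through Nr2f2.

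**Figure D1:**
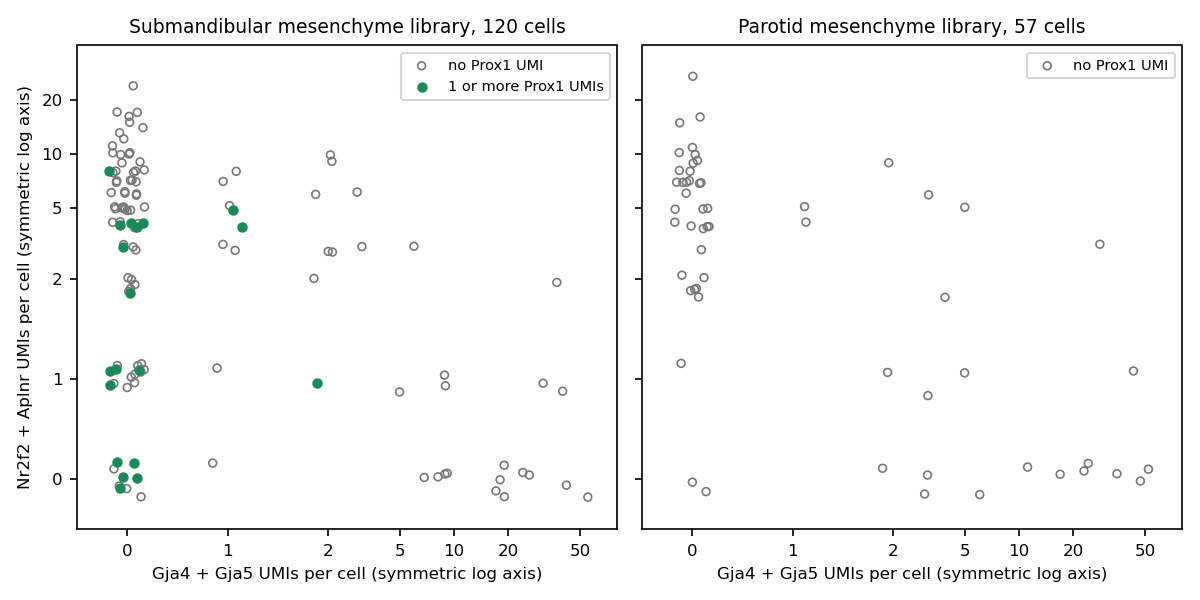
Each point is 1 endothelial cell, placed by its UMIs of the arterial connexins Gja4 and Gja5 (horizontal) and of the venous genes Nr2f2 and Aplnr (vertical), on symmetric log axes with small random shifts to part overlapping points. Cells with many connexin UMIs sit near the bottom and cells with many venous UMIs near the left edge in both libraries; the 19 submandibular cells with a Prox1 UMI, filled green, had at most 2 UMIs of Gja4 and none of Gja5.

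Arterial-type cells were then taken as those with at least 2 UMIs of the 5 arterial genes and none of the venous pair (12 cells in each library). Venous-type cells had a UMI of the pair, none of the arterial 5 and no Prox1 UMI (45 submandibular and 23 parotid cells). The 6 genes each way described next were taken for the highest ratios across this split, so they describe it and support nothing. Sat1, a polyamine acetyltransferase, was at 1379 CPM in submandibular arterial-type cells and 57.1 CPM in venous-type cells, and at 1299.5 against 84.1 CPM in the parotid library. Unc5b was at 727 against 38.1 CPM and at 531 against 60.1 CPM. It was also at 607 CPM in the 19 submandibular cells with a Prox1 UMI, which were kept out of the venous-type cells. Cxcr4, a gene of the arterial list, was not among the 6. It had 31 UMIs against 0 in the submandibular library, at least 35.6-fold more, and 14 against 1 in the parotid library.

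The ephrin ligand Efna1 was at 1133 against 159 CPM and at 671 against 108 CPM. The SoxF factor Sox7 was at 449 against 42.8 CPM and at 325 against 56.1 CPM. Serpinf1, which encodes the anti-angiogenic protein PEDF, and the G-protein regulator Rgs3 completed the 6 highest by the smaller ratio of the libraries. Efnb2 was 7.49-fold (3.49 to 16.8) and 2.95-fold (1.19 to 7.37) higher in arterial-type than in venous-type cells. In the pooled cells it was level with mesenchyme in the submandibular library only.

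Of the 16 cell cycle genes, inhibitors included, 15 passed 20 CPM in either subset of each library. At least 2-fold higher in venous-type cells were 11 submandibular and 8 parotid ones, where 15.2% and 11.6% of all genes were. In each library 1 of them was at least 2-fold higher in arterial-type cells, where 19.6% and 21.6% of all genes were. The survivin gene Birc5 was at 259 CPM in submandibular venous-type and 53.5 CPM in arterial-type cells, and at 320.5 against 75.8 CPM in the parotid library. Rrm2, a subunit of ribonucleotide reductase, was at 216.5 against 10.7 CPM and at 300.5 against 75.8 CPM. Odc1, the rate-limiting enzyme of polyamine synthesis, had 113 UMIs against 0 and 58 against 1; with Sat1, which acetylates polyamines for breakdown and export, the pair ran in opposite directions. Dut, Nhp2 and Siva1 were the other 3 of the 6 genes highest in venous-type cells. These subsets hold 12 arterial-type cells per library, and their intervals cover counting error only.

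Several lymphatic genes differed between the glands. Prox1, Ccl21a, Reln, Pdpn and Maf sat in few endothelial cells, while Nrp2 was in 93 of 120 submandibular cells. Pdpn and Maf were not confined to endothelial cells. Pdpn was in 19.0% of submandibular and 10.2% of parotid mesenchymal cells, and Maf in 53.9% and 0.574%. The part of RNA from mesenchymal cells in their endothelial values was not tested. Prox1 (ENSMUSG00000010175, chr1:190118035-190170714, minus strand, GRCm38) had 53 UMIs in 19 of 120 submandibular endothelial cells and 0 UMIs in all 57 parotid cells. The 19 cells were 15.8% (9.81 to 23.6) of the submandibular members; 0 of 57 allows a share of cells with a Prox1 UMI of up to 5.26% (3 cells of 57; the upper Clopper-Pearson bound is 6.27%). That limits cells with a UMI, not cells that express the gene. After thinning to 2500 UMIs the submandibular share was 7.5% (3.49 to 13.8), against 0.489% and 0.260% of thinned mesenchymal cells of the submandibular and parotid libraries.

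Ccl21a, the chemokine by which lymphatic vessels draw dendritic cells and lymphocytes (chr4:42772860-42773993, minus strand, GRCm38), was at 1837 CPM in submandibular endothelial cells and had no UMI anywhere in the parotid library. Its 2308 UMIs, in 23 cells, were at least 302-fold more than in the parotid cells. The gene has near-identical copies, and how reads were shared out among them is uncertain: the other row of the same symbol and both Ccl21c rows held 0 UMIs in the library, and the 2 Ccl21b rows held 7 in all. Reln, which encodes the matrix protein reelin, had 32 UMIs against 0. Podoplanin (Pdpn), a mucin-like lymphatic surface protein, was at 62.1 against 3.29 CPM. Lyve1, a hyaluronan receptor of lymphatic capillaries and some macrophages, had no UMI in the submandibular library at all and 1 UMI in the parotid members.

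Over the 14 lymphatic genes, 12 passed 20 CPM in either gland's endothelial cells. Of these, 7 had 2-fold or more in the submandibular cells and 0 in the parotid ones, with a median log2 ratio of 1.49. Of all 5794 genes past 20 CPM, 4.73% had that excess in submandibular cells and 2.83% in parotid cells. The median of all genes was -0.02. Without cells that held a Prox1 UMI or 5 or more Ccl21a UMIs (97 submandibular cells left), the list's median was -0.036. Both genes are on the list and no parotid cell met that rule, so the fall was in part set by the rule. Some lymphatic genes were at like levels in both glands: Mmrn1 was at 93.1 and 85.6 CPM and Tbx1 at 82.8 and 79.0 CPM. Without the lymphatic-type cells they were at 44.9 and 39.6 CPM in the submandibular cells, and the parotid levels were 1.91-fold (1.25 to 2.93) and 1.99-fold (1.27 to 3.13) higher.

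The Prox1 cells shared a profile that the Prox1 rule did not use. Ccl21a was in 18 of the 19 cells with a Prox1 UMI, with a median of 99 UMIs, and in 5 of the 101 without. Reln was in 16 of 19 and 2 of 101, Pdpn in 16 and 7, and the transcription factor Maf in 14 and 10. Nrp2 was in all 19, with 6 to 38 UMIs and a median of 18, and in 74 of 101 with a median of 2. The receptor Flt4 was in 17 of 19 and 46 of 101, and Tbx1, a T-box factor of lymphatic growth, in 16 and 28. With all cells thinned to the same depth, Flt4 was in 7 of 19 (36.8%, 16.3 to 61.6) and 20 of 101 (19.8%, 12.5 to 28.9). These intervals overlapped, so no order was read for Flt4. Thinned Tbx1 was in 11 of 19 Prox1 cells (57.9%, 33.5 to 79.7) and 14 of 101 others (13.9%, 7.79 to 22.2).

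Many pan-endothelial genes were lower in these cells. Of the 36 genes on that list 34 passed 20 CPM in either set, 18 of them were at least 2-fold lower in the Prox1 cells and 1 was higher by that size, where 13% and 7.44% of all genes were. The adhesion molecule Esam was in 0 of 19 and 88 of 101 cells, the VEGF receptor Flt1 in 0 and 74, and Aplnr in 0 and 73. CD34 was in 3 and 94, and Emcn in 4 and 93. The arterial connexin Gja5 was in 0 and 15. Other genes of the list were found in both sets: Cldn5 in 19 and 94, the receptor Tie1 in 14 and 80, Sox18 in 11 and 47 and Plvap in 8 and 95. The rule genes Kdr, Cdh5 and Pecam1, in 19, 18 and 14 of the 19 cells, are not independent of how the members were chosen. The Prox1 cells were deeper, with a median of 11164 UMIs per cell against 8512. Thinned to 2500 UMIs, Ccl21a was in 18 of 19 and 5 of 101 cells, Pdpn in 9 and 2, Reln in 4 and 1, Esam in 0 and 63, and Aplnr in 0 and 53. Nr2f2 was in 14 of 19 Prox1 cells and 46 of 101 others, but in 3 of 19 and 20 of 101 after thinning, so no order was read from it.

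Summed over the cells, the neuropeptide gene Nts was at 268 CPM in the Prox1 cells and 17.9 CPM in the rest, and Kctd12 at 268 against 14.9 CPM. Nts had 0 UMIs in parotid endothelial cells. Tcf15, a transcription factor of capillary endothelium, had 1 UMI in the Prox1 cells and 346 in the rest. These genes were picked from the Prox1 cells' own values, so they describe them and support nothing.

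**Figure D2:**
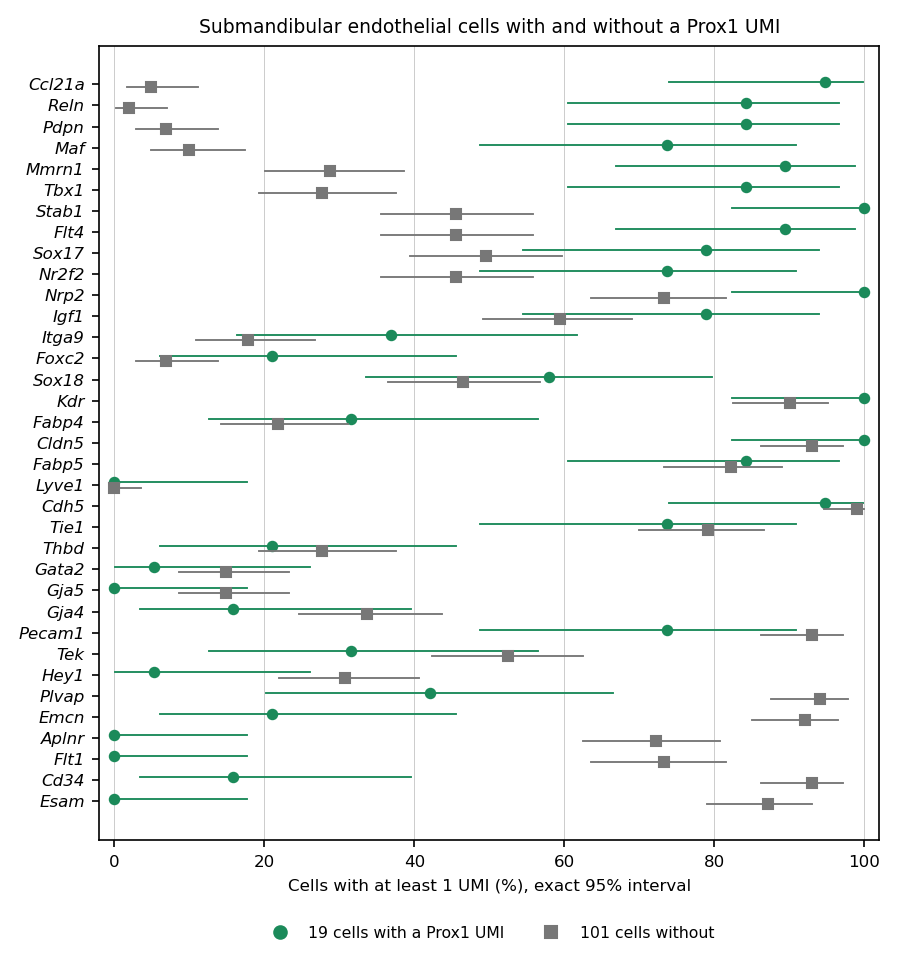
Share of submandibular endothelial cells with at least 1 UMI of each gene, in percent with exact 95% intervals, for the 19 cells with a Prox1 UMI (green circles) and the 101 without (grey squares), ordered by the difference. Ccl21a, Reln, Pdpn and Maf were mostly in Prox1 cells, while Esam, Cd34, Flt1 and Aplnr were mostly in the others.

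The number of Prox1 cells moved with the mitochondrial limit. Prox1 cells had a median of 6.42% mitochondrial UMIs and the other submandibular members 6.35%. Under a limit of 1000 genes and 5% mitochondrial UMIs, 19 submandibular endothelial cells remained, 1 with a Prox1 UMI (5.26%, 0.133 to 26), and 20 parotid cells, 0 with one. The 5% limit alone gave the same cells, and the limit of 1000 genes alone removed none. With no mitochondrial limit there were 24 Prox1 cells among 163 submandibular cells (14.7%, 9.67 to 21.1) and 0 among 76 parotid cells.

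Some venous genes that lymphatic cells share were also higher in the submandibular cells. Nrp2 was at 508 CPM in submandibular and 171 CPM in parotid endothelial cells, a 2.97-fold difference (2.41 to 3.69), and 257 CPM in the submandibular cells without the lymphatic-type cells (1.50-fold, 1.19 to 1.90). Flt4 was 2.66-fold (1.68 to 4.40) higher and 1.84-fold (1.12 to 3.14) without those cells. Stab1, a scavenger receptor of sinusoidal and lymphatic endothelium, was 2.16-fold (1.50 to 3.20) higher and 1.29-fold (0.851 to 1.97) without them. Nrp2 was also in 70.7% of submandibular and 23.9% of parotid mesenchymal cells. Flt4 was in 6 and 4 of the mesenchymal cells and Stab1 in 9 and 7. The part of RNA from mesenchymal cells in these values was not tested.

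Across all genes few passed the size rule between the glands. Of 1627 genes with at least 100 CPM in either gland's endothelial cells, 23 (1.41%) had 2-fold or more in submandibular cells and 13 (0.799%) in parotid cells. Past 20 CPM, 4.73% of all 5794 genes had 2-fold or more in submandibular cells and 2.83% in parotid cells. At these shares short lists would hold few such genes, so no result is read from the low counts that follow. Of the 35 pan-endothelial genes above 20 CPM, 0 differed by 2-fold, with a median log2 ratio of 0.06. Of 16 arterial genes above that level 0 had 2-fold or more in the submandibular cells and 1 in the parotid cells, with a median of -0.16. That gene was Gja5 (connexin 40), with 121 UMIs in 15 submandibular cells and 171 UMIs in 13 parotid cells, 96.3 against 281 CPM. It had a single-cell maximum of 28 parotid UMIs, and leaving that cell out left 239 CPM. With the stricter barcode limit Gja5 turned the other way, at a log2 ratio of 3.56, from 19 and 20 cells.

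The 10 genes named as highest in submandibular endothelial cells were Ccl21a, Tnni1, Mylpf, Actc1, Hist1h2ap, Igf1, Prss23, Acta2, Peg3 and Tcf15. The muscle genes sat mostly in 1 cell, which held 301 of 303 Mylpf, 309 of 310 Actc1, 129 of 139 Acta2 and 104 of 126 Tnni1 UMIs. Without it, Mylpf, Actc1 and Acta2 were lower than in the parotid cells. Tcf15 was at 276 against 82.3 CPM and in 80 of 120 and 24 of 57 cells. The serine protease gene Prss23 was at 170.3 against 37.9 CPM, and the growth factor gene Igf1 at 153 against 32.9 CPM.

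The same genes were compared between the mesenchymal cells of the 2 libraries. Of the 10 genes, 7 showed the same 2-fold excess in submandibular mesenchymal cells. The share of all genes with that excess is not given, so the count is not read as a result about these genes. Igf1, for one, was at 446 CPM there against 61.7 CPM in parotid, and the imprinted gene Peg3 at 672 against 46.2 CPM. Among the 7, Ccl21a and Tnni1 were low there, at 1.28 against 0 CPM and 3.28 against 1.59 CPM. Free RNA from the many mesenchymal cells was not separated from the members' own RNA, and its part in these values was not tested. The imprinted genes Dlk1 and Meg3 were left out of the 10 for their high mesenchymal level: Dlk1 was at 122.5 and 3.29 CPM in submandibular and parotid endothelial cells and at 2073 and 79.2 CPM in the mesenchymal cells. Tcf15 had 35.5 and 7.66 CPM in the mesenchymal cells, below the endothelial level in both glands.

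Of 5 genes of fatty acid uptake 4 passed 20 CPM, and 3 of these had 2-fold or more in submandibular cells and 0 in parotid ones. Of all genes past 20 CPM, 4.73% and 2.83% had such an excess. The fatty acid binding protein Fabp4 had 58 UMIs in 28 cells against 1 UMI in the parotid cells, a 28.0-fold difference with an interval from 4.84. The scavenger receptor Cd36 had 34 UMIs in 20 cells against 0, at least 4.22-fold more. These transcripts were not confined to lymphatic-type cells, since 36 Fabp4 and 31 Cd36 UMIs were left without them. Endothelin 1 (Edn1), the vasoconstrictor peptide, had 43 against 5 UMIs, a 4.16-fold difference (1.65 to 13.5). In the mesenchyme Fabp4 was in 40 submandibular and 0 parotid cells, Cd36 in 4 and 0 and Edn1 in 14 and 1. Fabp5, the other of the 3 fatty acid genes, was in 62.4% and 75.1% of mesenchymal cells. The part of RNA from mesenchymal cells in these values was not tested.

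In the parotid cells the 9 named genes were Igfbp7, Nme2, Bloc1s1, Kcne3, Phlda1, Gja5, Nutf2, Ctla2a and Fdps. Igfbp7, a secreted IGF-binding protein of vessel walls, was at 110.3 CPM in 27 of 57 parotid cells and at 22.3 CPM in 22 of 120 submandibular cells. The mesenchymal cells ran the opposite way, with 1.18 CPM in parotid and 59.3 CPM in submandibular cells. The potassium channel subunit Kcne3, known from sprouting tip cells, was at 198 against 60.5 CPM, with 38 of its 120 parotid UMIs in 1 cell and 142 CPM without that cell. Kcne3 was nearly absent from mesenchymal cells (0.238 and 0.181 CPM).

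Ctla2a was at 469 against 183 CPM, but 135 of its 285 parotid UMIs came from the cell with megakaryocyte markers. Without that cell it was at 251.3 CPM, 1.37-fold the submandibular level. The same cell held 26 of 61 parotid Phlda1 UMIs; without it Phlda1 was at 58.6 CPM, 1.89-fold the submandibular level, and in the mesenchymal cells it was higher in the submandibular library, at 118 against 54.6 CPM. Fdps was 1.87-fold higher without the parotid cell that held most of its UMIs. Nme2, Nutf2 and Fdps had the same 2-fold excess in parotid mesenchymal cells. Xist, the RNA of the inactive X chromosome, was at 532 CPM in submandibular and 92.2 CPM in parotid endothelial cells and at 1005 and 19.8 CPM in the mesenchymal cells, and its part in the differences between glands was not tested.

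**Figure D3:**
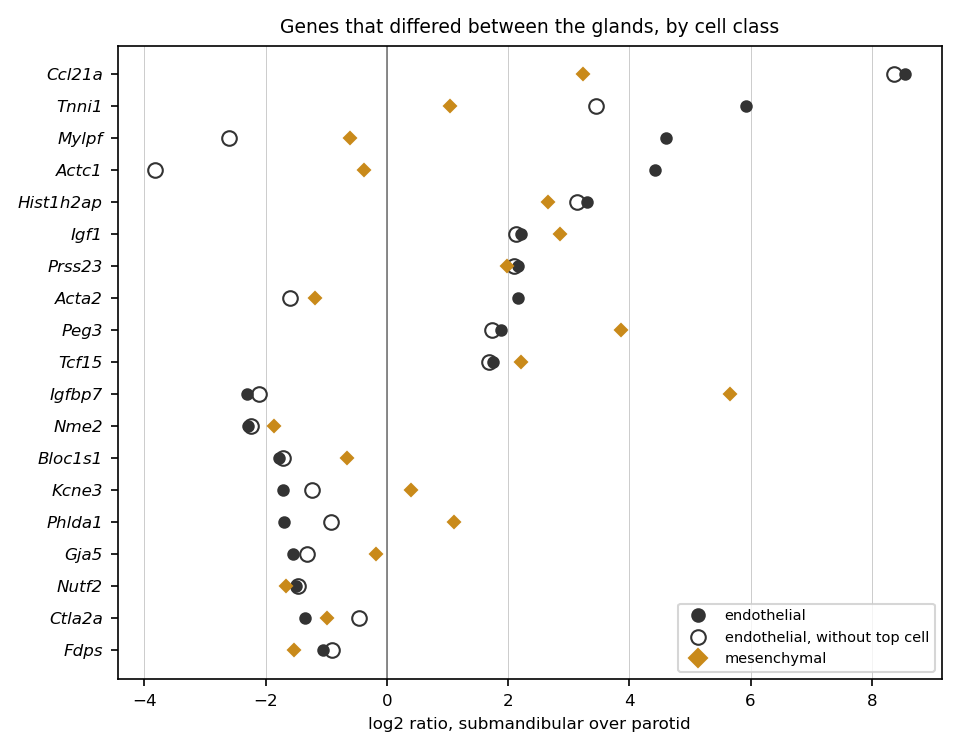
Log2 ratio of CPM, submandibular over parotid, of the 19 genes named between the glands. Filled circles are endothelial cells, open circles the same without the cell holding most UMIs of the gene in the higher library, and diamonds the mesenchymal cells; Mylpf, Actc1 and Acta2 cross 0 when 1 cell is left out, and Igfbp7 has its diamond on the opposite side.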

How the data were processed

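Counts of UMIs per gene and barcode were used as deposited by the authors, whole numbers without normalization; per the submitters' processing notes they were made with Cell Ranger 2.1.1 on mm10. Barcodes under 500 genes or over 10% mitochondrial UMIs were left out. Each class was summed within its library and scaled to CPM of that sum. CPM carry exact Poisson, ratios exact conditional binomial and shares Clopper-Pearson 95% intervals (scipy 1.17.1), which cover counting error only. The submandibular and parotid endothelial sums held 1256662 and 607593 UMIs, from libraries of 32036980 and 30815632. A class with 0 UMIs was set to 3 UMIs in list medians; the text then gives the lower interval bound. Genes were called at a 2-fold ratio with at least 100 CPM, list members with at least 20 CPM on the higher side. With 1 library per group no test was run. Members, gene lists and naming rules were chosen with earlier results of these data known.

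Named genes were the 15 with the highest smaller ratio over mesenchyme, the 8 lowest, up to 10 each way between glands, 6 each way between arterial-type and venous-type cells, and list members. Globin, mitochondrial, ribosomal, sex-linked and immediate early genes and unnamed models were left out of the top genes. Between glands Dlk1 and Meg3 were also left out. Their CPM in submandibular mesenchymal cells was more than 10 times their CPM in submandibular endothelial cells. Lymphatic-type genes were picked after values were seen. Thinning drew 2500 UMIs per cell without replacement. The ratios were tested on simulated counts. Alternatives were the thresholds, barcode limits, scaling, minimum CPM and thinning depth. Doublets were not removed. A further marker list is not reported here.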

Additional observations from a re-analysis of the deposited data

Results flagged for a closer look

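Some genes lay on opposite sides of the endothelial to mesenchymal comparison in the 2 glands, by at least 2-fold each way. None of these differences was tested, since each gland had 1 library. The log2 ratio of endothelial over mesenchymal cells was -1.41 (submandibular) and 6.55 (parotid) for Igfbp7. It was 2.13 and -3.75 for Rprm, which had 6 UMIs in the endothelial cells of each library and differed mainly in the mesenchymal cells (1.09 and 133 CPM). It was 1.49 and -2.55 for the homeobox gene Meox2, at 15.9 and 28.0 CPM in endothelial and 5.66 and 163 CPM in mesenchymal cells. It was 1.91 and -1.35 for Gap43, a growth cone protein, at 149.6 and 54.3 CPM in endothelial cells. For Acta2, smooth muscle actin, it was 2.30 and -1.04, and 129 of the 139 submandibular UMIs were in 1 cell.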

How the results depend on the processing

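No paired analysis was possible because each group had 1 library. Under a limit of 1000 genes and 5% mitochondrial UMIs, endothelial shares were 0.942% (submandibular) and 0.565% (parotid), genes higher between glands 65 and 69, the arterial median 3.14 over mesenchyme (submandibular) and 0.94 between glands, the lymphatic median between glands 0.30, thinned Prox1 cells 0 and parotid cells with arterial and venous UMIs 5%; Gja5 turned to 3.56. Without cells holding UMIs of other types, the parotid share was 0.973%, genes higher in parotid cells 21, the parotid arterial median 4.72, Mylpf -2.89 and Acta2 -0.30 (log2 between glands). Without cells with mesenchymal UMIs the parotid arterial median was 4.58, and with a mean of per-cell CPM 5.81. Without lymphatic-type cells the submandibular share was 2.003%, the lymphatic median between glands -0.036 and Prox1 cells 0. That rule itself fixes the Prox1 count and in part the median. Without the muscle-marker cell, Mylpf, Actc1 and Acta2 were at -2.60, -3.82 and -1.60; it is also the cell with most UMIs of each. These last 2 settings, and leaving out the cell with most UMIs of each gene named between glands, were chosen after seeing the data. At a minimum of 50 CPM the counts were 315 (higher in endothelial cells), 265 (in mesenchymal cells), 57 (submandibular) and 39 (parotid), and at 200 CPM 80, 60, 14 and 5. With no minimum the parotid arterial median was 4.51, the venous medians 5.65 and 4.80 and the parotid lymphatic median 4.45. Thinned to 1500 UMIs, 4.17% of submandibular cells held arterial and venous UMIs and 3.33% Prox1; unthinned, 36.7% and 15.8%, and 36.8% of parotid cells held both. The cause of these changes was not tested, beyond the fewer cells or genes that a setting leaves. Of the values of single named genes 596 stayed, 64 moved and 9 reversed; 22 of the moved ones came with the stricter barcode limit, 14 without cells with mesenchymal UMIs and 8 at a threshold of 2 rule UMIs. The other 169 recomputed counts, shares and list medians stayed within the counting interval or, for counts of genes, within 1.5 times.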
